A study of Nomascus leucogenys and Hoolock leuconedys and Nomascus gabriellae with 23 samples.

Results

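LAVA is a composite retrotransposon of gibbons, named for the parts it joins: LINE-1, Alu, tandem repeats and an Alu-like stretch. It has no enzymes of its own and is thought to be copied by the LINE-1 machinery. That machinery reverse transcribes an RNA from its 3' end, so that copies which stop early lack the 5' part. In LAVA the Alu-like sequence and the tandem repeats lie toward the 5' end and the LINE-1 fragment lies at the 3' end. Introns are transcribed with their gene, and an insertion there is read in the sense or the antisense orientation.

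The sites described here are the short intronic insertions listed at a single base. They were chosen from the deposited table of LAVA sites as those with the location class intronic, an end 1 base after the start and an element length under 540 bp. The rule took 792 of 5490 sites. It used location, form and length, and it used neither the calls in the animals nor the orientation. Form was tied to carriage in Nomascus, however. Intronic sites of the other form, interval sites, are listed over the whole length of an element. All 543 of them had a Nomascus carrier, and 538 were carried by all 13 Nomascus animals. The choice of single-base sites is therefore not independent of the Nomascus calls.

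Whole-genome libraries were made from blood DNA of 23 gibbons, and each site carries a call per animal. The animals were 11 Nomascus leucogenys, 2 Nomascus gabriellae, 2 Hylobates moloch, 1 Hylobates lar, 1 Hylobates muelleri, 1 Hylobates pileatus, 3 Hoolock leuconedys and 2 Symphalangus syndactylus. No treatment, age or relationship is given for any animal in the sources used here. Every listed site had at least 2 carriers, so sites of lone animals do not enter any count, and a genus with few animals can show fewer of its own sites. The sequencing depth is unknown, because the table holds calls and no read numbers. Missing calls, treated as not carried, made up 0.736% of the calls at these sites and 0.651% at intronic single-base sites of at least 540 bp. They were uneven, from 0 in 3 Nomascus animals to 19 in H. lar replicate 1 and 35 in Hoolock leuconedys replicate 1.

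By their consensus positions, the short sites covered the 3' end of LAVA alone. All 792 reached consensus position 1838 (606 sites) or 1839 (186 sites), and 1839 was the last consensus position listed for any site. Their length equalled the stretch of consensus covered. Intronic single-base sites of at least 540 bp and intergenic ones under 540 bp also all ended at 1838 or 1839. The starts of the 792 sites lay between positions 1299 and 1547. Lengths ran from 291 to 539 bp with a median of 452 bp. The 3 shortest, each 291 bp, lay in introns of TAF2 (a subunit of the general transcription factor TFIID), NFU1 (an iron-sulfur cluster protein of mitochondria) and AC007950.1, and each was carried by both Symphalangus animals alone. Just inside the limit lay a 539 bp site in the glutamate receptor gene GRIK1, carried by the 3 Hoolock animals, a 533 bp site named AC026495.1 and a 529 bp site named RNF219-AS1. Just outside lay sites of 542, 544 and 545 bp in LGR5, PRSS23 and FOXP1.

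Lengths were not spread evenly below the limit. Of the 792 sites, 510 (64.4%) were 440 to 469 bp long and only 19 (2.40%) were 490 to 539 bp long. The most frequent consensus start was 1386 (105 sites), followed by 1376 (82), 1387 (66), 1375 (58) and 1448 (40). Intergenic single-base sites under 540 bp, a set of 647 with which the intronic ones share no site, had the same first 3 starts, with 87, 69 and 53 sites. Start positions thus repeated to the base in both locations.

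**Figure D1:**
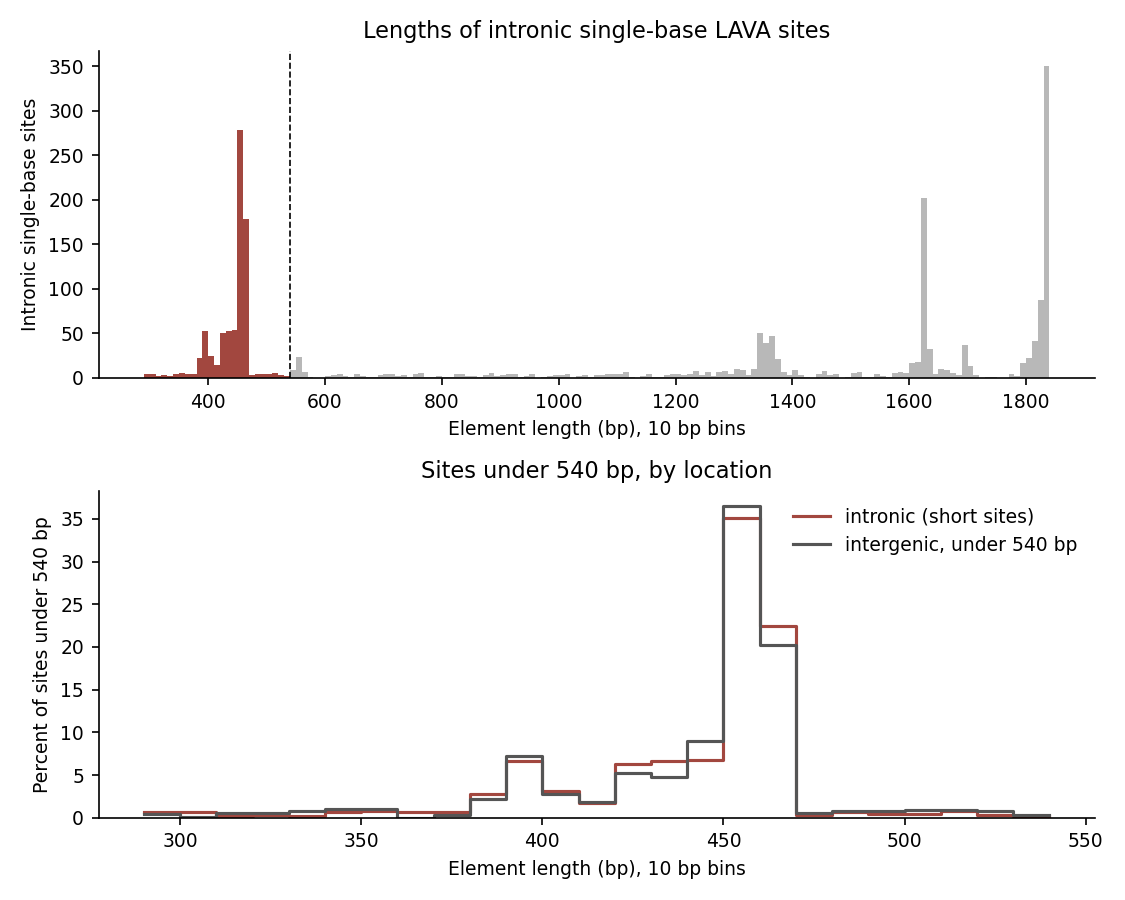
Upper panel: number of intronic single-base sites (vertical axis) by element length in 10 bp bins (horizontal axis, bp), with the 792 short sites in red and the dashed line at 540 bp. Lower panel: percent of sites under 540 bp in each bin for intronic and intergenic sites; 64.4% of the intronic and 65.7% of the intergenic sites lie between 440 and 469 bp.

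Sites starting at different places differed in how widely they were carried. Windows of 3 bases either side of the frequent starts were set after the values had been seen, so their values are a description with no test. The window from 1383 to 1389 held 272 sites with a median length of 452 bp. Of these, 98 (36.0%) were carried in 1 genus and 45 (16.5%) in all 4. The window from 1373 to 1379 held 169 sites with a median length of 463 bp, of which 106 (62.7%) were carried in 1 genus and 17 (10.1%) in all 4. The 2 windows also differed in the last base covered, since 3.68% of the first and 43.2% of the second ended at 1839. Intergenic sites in the same windows were carried in 1 genus at 38.9% and 61.8%. The later window, from 1445 to 1451, held 64 sites with a median length of 390 bp, of which 35.9% were in 1 genus.

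Hylobates carried 70.4% of the sites in the window from 1373 to 1379, 69.9% of those from 1383 to 1389 and 70.3% of those from 1445 to 1451. The other genera carried fewer of the first window than of the second: Nomascus 38.5% and 49.6%, Hoolock 32.0% and 51.5%, Symphalangus 29.6% and 47.8%. The window from 1373 to 1379 made up 22.2% ± 2.62 of the short intronic sites of a Hylobates animal (SD, n = 5). The corresponding share was 15.5% ± 2.22 in Nomascus (SD, n = 13). Symphalangus animals had 15.9% ± 0.83 (SD, n = 2) and Hoolock animals 14.0% ± 0.80 (SD, n = 3). The 5 Hylobates animals lay between 18.7% and 24.7%, and the highest animal of the other genera was a Nomascus at 18.2%.

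Each animal carried between 90 and 372 of the 792 sites. Nomascus animals carried the fewest, with a lowest of 90, a median of 136 and a highest of 176. Pooled over the animals of a genus, carriers were found at 351 short sites in Nomascus, 533 in Hylobates, 372 in Hoolock and 323 in Symphalangus. Intronic interval sites with a carrier numbered 543, 513, 499 and 498 in the same order. Every interval site had a Nomascus carrier, so these pooled counts are no comparison for the counts per animal. In Hylobates, H. lar replicate 1 carried 241, H. pileatus replicate 1 carried 242, H. moloch replicate 2 carried 292, H. muelleri replicate 1 carried 365 and H. moloch replicate 1 carried 372. The 3 Hoolock animals carried 235, 259 and 284, and the 2 Symphalangus animals 255 and 249. No Nomascus animal overlapped with an animal of another genus, whereas Hoolock and Symphalangus animals lay within the Hylobates range or just below it. The lowest Hoolock value belongs to the animal with 35 missing calls, and counting all of these as carried would put it at 270.

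The highest mean was that of Hylobates, 302 ± 63.8 (SD, n = 5). Hoolock had a mean of 259 ± 24.5 (SD, n = 3), Symphalangus of 252 ± 4.24 (SD, n = 2) and Nomascus of 136 ± 26.7 (SD, n = 13). By an exact permutation test, two-sided and adjusted over the 6 pairs of genera, Nomascus was lower than Hylobates (adjusted p = 0.0014), Hoolock (adjusted p = 0.0107) and Symphalangus (adjusted p = 0.0381). The other 3 pairs did not pass (exact permutation tests, adjusted p = 0.589, 0.686 and 0.8). The 3 tests of Nomascus are not independent of the choice of form, which left out the intronic interval sites. All 13 Nomascus animals carried 538 of those 543 sites. Pairs with few animals cannot pass: no exact p under 0.2 exists for Hoolock against Symphalangus, and none under 0.0952 for Hylobates against Symphalangus. The order above Nomascus was not stable to the length limit: with a limit of 400 bp, the mean of Hylobates minus that of Hoolock was -11.9 sites.

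**Figure D2:**
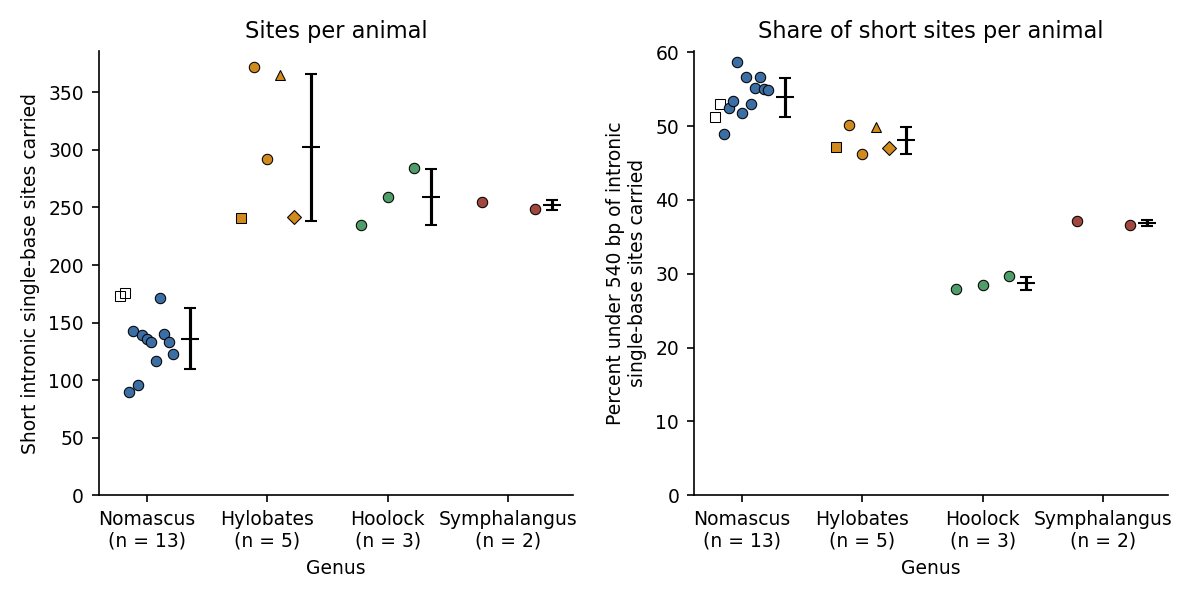
Left: number of short intronic single-base sites carried by each animal. Right: those sites as a percent of all intronic single-base sites the animal carried. Points are animals (open squares N. gabriellae, orange circles H. moloch, square H. lar, triangle H. muelleri, diamond H. pileatus), bars are the mean and SD of the genus, and all 13 Nomascus animals lie below every other animal on the left and between 48.9% and 58.6% on the right.

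Set against the longer insertions of the same animal, the order of genera was different. Among all intronic single-base sites an animal carried, those under 540 bp made up 53.9% ± 2.62 in Nomascus (SD, n = 13) and 48.1% ± 1.84 for Hylobates (SD, n = 5). They made up 36.9% ± 0.39 in Symphalangus (SD, n = 2) and 28.7% ± 0.87 in Hoolock (SD, n = 3). The 3 Hoolock animals, at 28.0%, 28.5% and 29.7%, lay below the 2 Symphalangus animals at 36.6% and 37.2%, and these lay below all Hylobates animals, the lowest of which stood at 46.2%. Nomascus overlapped with Hylobates, since N. leucogenys replicate 1 stood at 48.9% and the highest Hylobates, H. moloch replicate 1, at 50.2%. Hoolock animals carried 605, 649 and 673 longer intronic sites, against 84 to 165 in Nomascus, 270 to 369 in Hylobates and 431 in each Symphalangus animal.

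Permutation tests of the same kind, exact and adjusted over 6 pairs, separated Nomascus from Hylobates (adjusted p = 0.0056), Hoolock (adjusted p = 0.0107) and Symphalangus (adjusted p = 0.0381). Hylobates and Hoolock did not overlap, and their difference of 19.4 percentage points missed the threshold (exact permutation, adjusted p = 0.0536) at the smallest unadjusted p possible for 5 against 3 animals, 0.0357. The difference between Nomascus and Symphalangus depended on the listing rule: among sites with at least 3 carriers it was 1.35 percentage points (exact permutation, adjusted p = 0.495), because that limit removes every site carried by the 2 Symphalangus animals alone. Under the same limit Hylobates minus Symphalangus turned from 11.2 to -4.79 percentage points. Intergenic single-base sites gave the same order of means, from 51.6% ± 2.84 in Nomascus (SD, n = 13) to 28.3% ± 1.23 in Hoolock (SD, n = 3).

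Within Nomascus, the 2 N. gabriellae carried 173 and 176 short intronic sites. The 11 N. leucogenys carried from 90 to 171 with a median of 133, so the species did not overlap. The margin was narrow: N. leucogenys replicate 8, at 171, would stand at 173 with its 2 missing calls counted as carried. The excess was not particular to short intronic sites. The 2 N. gabriellae carried 165 and 156 longer intronic sites (N. leucogenys at most 139) and 130 and 133 short intergenic ones (at most 129). Their 110 and 117 longer intergenic sites overlapped with N. leucogenys (at most 115). The difference of 45.3 short intronic sites gave an exact two-sided permutation p of 0.0256, the smallest this test can give over 78 assignments. With either N. gabriellae animal left out the exact permutation p was 0.167, which is also the smallest possible there. The lowest N. leucogenys was replicate 1, whose label shares its name with the RefSeq assembly Asia_NLE_v1. The sources do not state whether that assembly was the reference for the calls.

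Short sites were carried in more genera than longer ones. Of the 792, 378 (47.7%, 95% exact interval 44.2 to 51.3) were carried in 1 genus, 154 in 2, 147 in 3 and 113 (14.3%) in all 4. Of 1410 intronic single-base sites of at least 540 bp, 1048 (74.3%) were carried in 1 genus and 90 (6.38%) in all 4. Both shares differed between the length classes by Fisher's exact test adjusted over 3 tests (p = 4.72e-35 and 2.19e-09). Carriers in Nomascus were found at 351 short sites (44.3%) and at 304 longer ones (21.6%), with an adjusted p of 2.36e-28 by Fisher's exact test. All sites rest on the same 23 animals, so these tests are over sites and not over animals. The 113 sites under 400 bp, set against the same longer sites in a comparison added after seeing the data, were in all 4 genera at 12.4% and in Nomascus at 37.2%, and both differences passed (adjusted p = 0.03 and 0.00041 by Fisher's exact test). Against all sites of at least 400 bp, most short sites included, they did not (adjusted p = 0.241 and 0.136 by Fisher's exact test). Intergenic single-base sites under 540 bp, with 48.2% in 1 genus and 14.7% in all 4, had shares close to those of the short intronic sites.

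**Figure D3:**
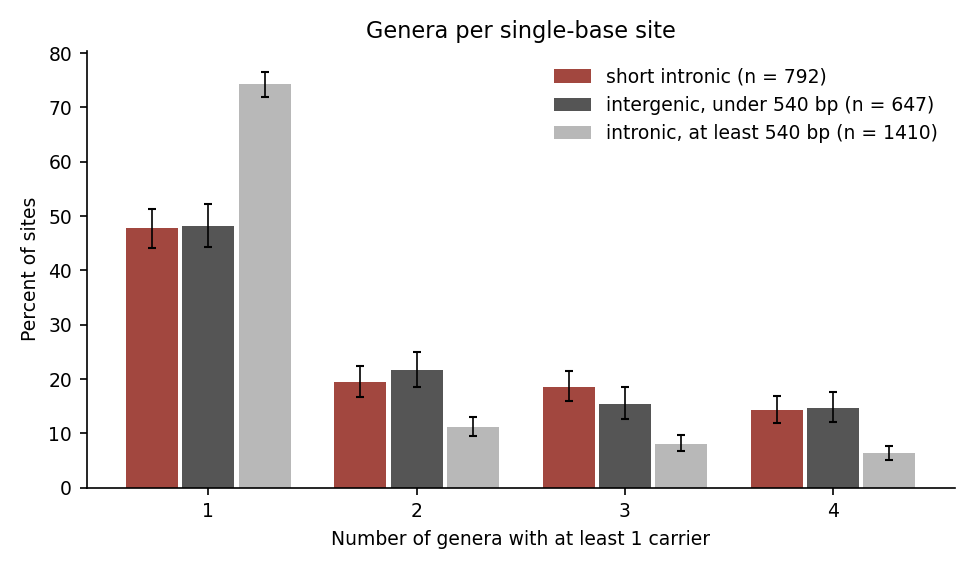
Percent of sites (vertical axis) by the number of genera with at least 1 carrier (horizontal axis), for short intronic, short intergenic and longer intronic single-base sites. Bars are shares and error bars exact 95% intervals over sites; 47.7% of short intronic and 74.3% of longer intronic sites are in 1 genus.

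All 15 possible combinations of genera occurred among the short sites. Hylobates alone was the most frequent, with 175 sites, followed by all 4 genera with 113, Nomascus alone with 81, Hoolock alone with 75, and Hylobates, Hoolock and Symphalangus together with 60. Symphalangus alone had 47. The combinations of 2 genera ranged from 44 sites, in Nomascus and Hylobates, to 11, in Nomascus and Symphalangus. Among the longer intronic sites Hoolock alone led with 486 and Symphalangus alone had 248.

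**Figure D4:**
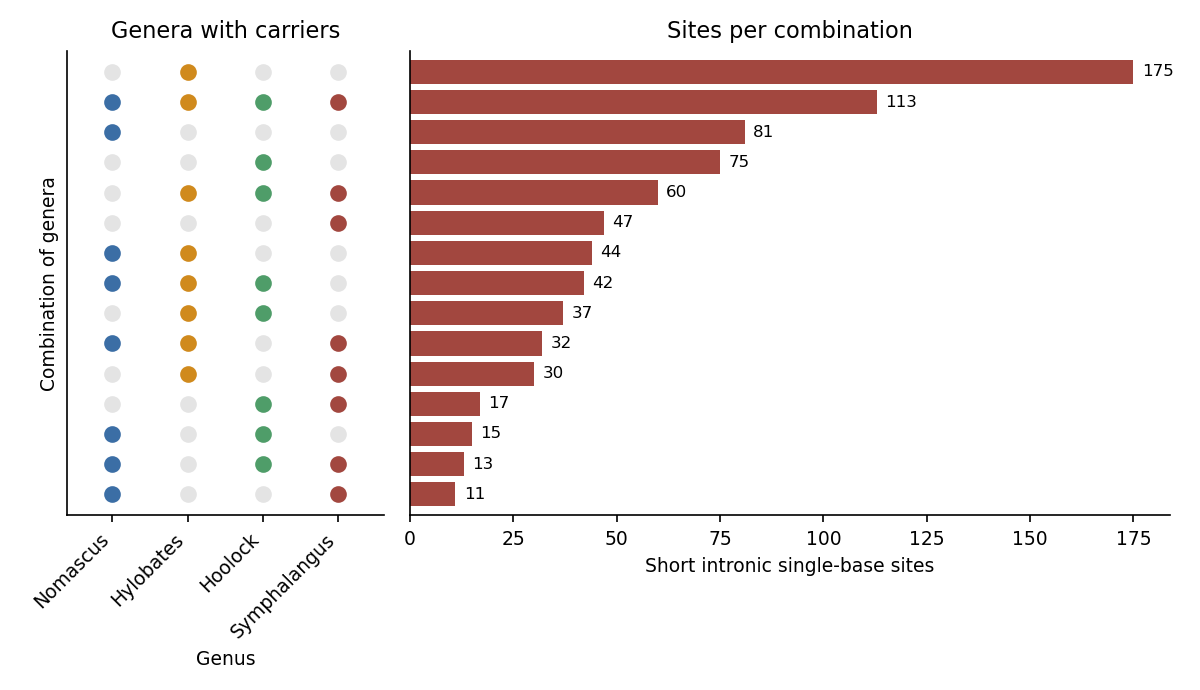
Number of short intronic single-base sites (bars, horizontal axis) for each combination of genera with at least 1 carrier, marked by coloured dots at the left. Hylobates alone (175 sites) and all 4 genera (113 sites) are the 2 most frequent combinations, and Nomascus with Symphalangus (11 sites) is the least frequent.

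The share of sites carried by every animal of a genus differed by genus. All 13 Nomascus carried 10 of the 351 sites found in that genus (2.85%), all 5 Hylobates 84 of 533 (15.8%), all 3 Hoolock 138 of 372 (37.1%, 95% exact interval 32.2 to 42.2) and both Symphalangus 181 of 323 (56.0%, 95% exact interval 50.4 to 61.5). Since listing needs 2 carriers, a site found in Symphalangus alone is carried by both animals by construction, as were 47 of 47 short and 248 of 248 longer ones. Among sites also carried in another genus, both Symphalangus carried 134 of 276 short (48.6%, 42.5 to 54.6) and 130 of 236 longer ones (55.1%, 48.5 to 61.5). All 3 Hoolock carried 90 of 297 such short sites (30.3%, 25.1 to 35.9) and 99 of 263 such longer ones (37.6%, 31.8 to 43.8). The intervals of short and longer sites overlap in both genera. Of the 414 short sites carried in at least 2 genera, 325 (78.5%) were in part of the animals of at least 2 of them. The corresponding counts were 258 of 362 longer sites (71.3%) and 259 of 335 short intergenic ones (77.3%). These values were examined after the calls had been seen and carry no test.

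Sites with few carriers made up much of the set. At 231 sites there were 2 carriers, the lowest number listed, and 391 sites (49.4%) had 2 or 3. The 2 carriers were of the same species at 124 sites (53.7%), of different species of a genus at 67 (29.0%) and of different genera at 40 (17.3%, 95% exact interval 12.7 to 22.8). At longer intronic sites with 2 carriers, 84.0% were within a species and 5.47% (3.57 to 7.97) between genera.

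In Hylobates, 77 of the 175 genus-specific sites had 2 carriers, and 44 of these were the pair of H. moloch replicate 1 and H. muelleri replicate 1. The pair of the 2 H. moloch animals accounted for 15. By the Jaccard index (sites shared by a pair over sites of either animal), H. moloch replicate 1 stood at 0.671 with H. muelleri replicate 1 and at 0.509 with H. moloch replicate 2. The same pairs stood nearly level over the longer intronic sites, at 0.670 and 0.660. Over the short sites the mean index was 0.385 for pairs within a genus and 0.198 for pairs between genera. Over the longer intronic sites these means were 0.400 and 0.108. Of the 81 Nomascus-specific sites, 50 were carried in N. leucogenys alone, 6 in N. gabriellae alone and 25 in both.

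Sites present in every genus included 3 carried by all 23 animals. They lay in ANXA6, a calcium-dependent phospholipid-binding protein (chromosome 2, position 29846530, 451 bp, sense), GRTP1, a TBC-domain protein (chromosome 5, 141491277, 452 bp, antisense), and ATXN1, a transcriptional regulator mutated in a spinocerebellar ataxia (chromosome 8, 67449043, 454 bp, sense). A further 7 sites were carried by 22 animals. The site in XPO1, the main nuclear export receptor (chromosome 14, 29676379, 452 bp, sense), and that in PPP4R3B, a protein phosphatase subunit (chromosome 14, 23660170), each had 12 Nomascus carriers and every animal of the other genera. The site in ASH2L, a core subunit of histone methyltransferase complexes (chromosome 8, 43879008), was carried by all but 1 Hylobates, and those in LRRC29 and RBM43 by all but 1 Hoolock. At XPO1 and RBM43 the animal not counted as a carrier had a missing call. Positions follow the authors' table and count from 1. Neither the genome build nor the number of the intron is stated there.

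Among sites carried by all animals of a genus and no other animal, Hylobates had 14 short intronic ones. The first by position in genes found in the RefSeq table were NSD1, a histone methyltransferase (chromosome 2, 3502976, 422 bp, sense), SHCBP1, the helicase gene ASCC3, ARPP19, which encodes an inhibitor of a mitotic phosphatase, TMOD2, an actin-capping tropomodulin, and P2RX6, an ATP-gated channel subunit. Hoolock had 48, beginning with SOCS4, a suppressor of cytokine signalling (chromosome 1a, 87057512, 363 bp, sense), PRELID2, ARHGAP26, FAM172A, KIAA0825 and SYNCRIP. The sites in ARHGAP26 and in SYNCRIP, which encodes an RNA-binding protein, were 303 and 305 bp long, near the lower end of the range. Symphalangus had 47, beginning with TCF7, a transcription factor of T cells (chromosome 2, 47174079, 452 bp, sense), MXI1, IDE, PKIB, MYO5B and LAMA1. IDE encodes the insulin-degrading enzyme and its site was 347 bp long and antisense. Nomascus had no short intronic site of this kind, and none among its 84 longer intronic and 63 short intergenic genus-specific single-base sites. In the interval form, all 13 Nomascus animals carried 6 of its 7 genus-specific intronic sites.

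Each site was also tested for a difference in carriers between the 13 Nomascus and the 10 other animals, with a Fisher's exact test per site and p-values adjusted over the 5490 sites. The test treats animals of a genus as independent. Yet pairs within a genus shared more short sites (mean Jaccard index 0.385) than pairs between genera (0.198), so small p-values are not evidence from independent animals. At 74 of the 792 short sites (9.34%, 95% exact interval 7.41 to 11.6) carriers were less frequent in Nomascus, against 4.79% of all sites and 6.02% of single-base sites. The shares were 9.12% among short intergenic sites and 4.68% among longer intronic ones. At 3 short sites (0.379%) carriers were more frequent in Nomascus, against 3.01% of all sites and 0.663% of single-base sites. Intronic interval sites had 66 of 543 (12.2%) called as more frequent in Nomascus and 0 as less frequent. A site carried by all 13 Nomascus animals cannot be called as less frequent there, and 538 of the 543 were such sites. The 4.79% and 3.01% of all sites include interval sites, so their contrast with the short sites is tied to the choice of form. A site carried only in Hylobates, Hoolock or Symphalangus cannot be called, because even with all animals of the genus its adjusted p is 0.0545, 0.156 or 0.268. Such sites made up 297 of the short intronic sites (37.5%) and 964 of the longer ones (68.4%). Among the remaining sites, 74 of 495 short (14.9%) and 66 of 446 longer intronic ones (14.8%) were called as less frequent in Nomascus. These remaining sites still include some that cannot be called in that direction. Among them are sites of Nomascus alone (81 short, 84 longer) and of Hoolock with Symphalangus alone (17 and 20). The short sites called as less frequent in Nomascus had at least 6 carriers outside it. The difference in shares between classes was not tested.

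Of the 74 sites, 63 had no Nomascus carrier and 46 of these had carriers in all 3 other genera. At 8 sites all 10 other animals carried the insertion and no Nomascus did (Fisher's exact test, adjusted p = 8.42e-05). They lay in ERI1, an exoribonuclease that acts on histone mRNA (chromosome 4, 144189513, 463 bp, antisense), NFKBID, a nuclear inhibitor of NF-kappaB (chromosome 10, 41564511, antisense), SIPA1L3 (chromosome 11, 46673971, antisense), ATF6, a transcription factor of the unfolded protein response (chromosome 12, 40638074, 491 bp, antisense), PRKAG2, a regulatory subunit of AMP-activated kinase (chromosome 13, 102379341, sense), POLR1A, the catalytic subunit of RNA polymerase I (chromosome 14, 70993921, sense), DLK2 (chromosome 17, 7042254, sense) and ALPK1, an innate immune kinase (chromosome 18, 62554433, antisense). The DLK2 site, at 452 bp, began at the most frequent consensus start, 1386.

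The 3 sites more frequent in Nomascus had no carrier elsewhere. The site named AC105411.1 (chromosome 2, 153385688, 415 bp) was carried by 11 of 13 Nomascus animals (Fisher's exact test, adjusted p = 0.0024), among them both N. gabriellae. PNO1, a ribosome assembly factor (chromosome 14, 36802192, 452 bp, antisense), and PID1 (chromosome 22a, 120379463, 371 bp, sense) were each carried by 8 Nomascus animals (Fisher's exact test, adjusted p = 0.0355). The number called in this direction moved with single animals. It was 1 without N. gabriellae replicate 2, H. lar replicate 1, H. muelleri replicate 1 or H. pileatus replicate 1, and 5 without Hoolock replicate 3 or Symphalangus replicate 2.

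Short intronic sites were nearly balanced between the strands of their genes. Of the 792, 366 lay in sense and 426 in antisense orientation, a sense share of 46.2% (95% exact interval 42.7 to 49.8). A two-sided exact binomial test put this below 50% (p = 0.036). The departure was not past the threshold among sites with at least 3 carriers (exact binomial p = 0.128) or among sites under 400 bp (exact binomial p = 1). Of the short intergenic sites, 49.0% were on the plus strand (45.1 to 52.9).

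The sense share was 38.9% among the 1410 longer intronic single-base sites and 25.6% among the 543 intronic interval sites, those listed over the whole length of an element. Short sites differed from both by Fisher's exact test adjusted over 2 tests (p = 0.001 and 3.23e-14). The share did not fall steadily with length. It was 49.6% under 400 bp, 45.1% from 400 to under 440 bp, 47.6% from 440 to under 460 bp and 42.9% from 460 to under 540 bp. It was 31.3% from 540 to under 1000 bp, 32.0% from 1000 to under 1500 bp and 42.7% at 1500 bp and over. Against sites of 1500 bp and over alone, a comparison added after seeing the data, the difference of 3.48 percentage points did not pass (adjusted p = 0.157 by Fisher's exact test).

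The sense share also moved with the number of genera. Among short sites it was 43.7% for 1 genus, 44.2% for 2, 52.4% for 3 and 49.6% for 4, and among longer intronic sites 36.4%, 41.8%, 52.6% and 46.7%. In sites of 1 genus alone, a comparison added after seeing the data, the difference of 7.3 percentage points between short and longer sites passed (adjusted p = 0.0271 by Fisher's exact test). Among genus-specific short sites, sense orientation was found at 49.4% of 81 in Nomascus, 44.0% of 75 in Hoolock, 41.7% of 175 in Hylobates and 40.4% of 47 in Symphalangus. Counted per animal, the sense share of the short sites carried ranged from 44.6% to 57.1%.

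**Figure D5:**
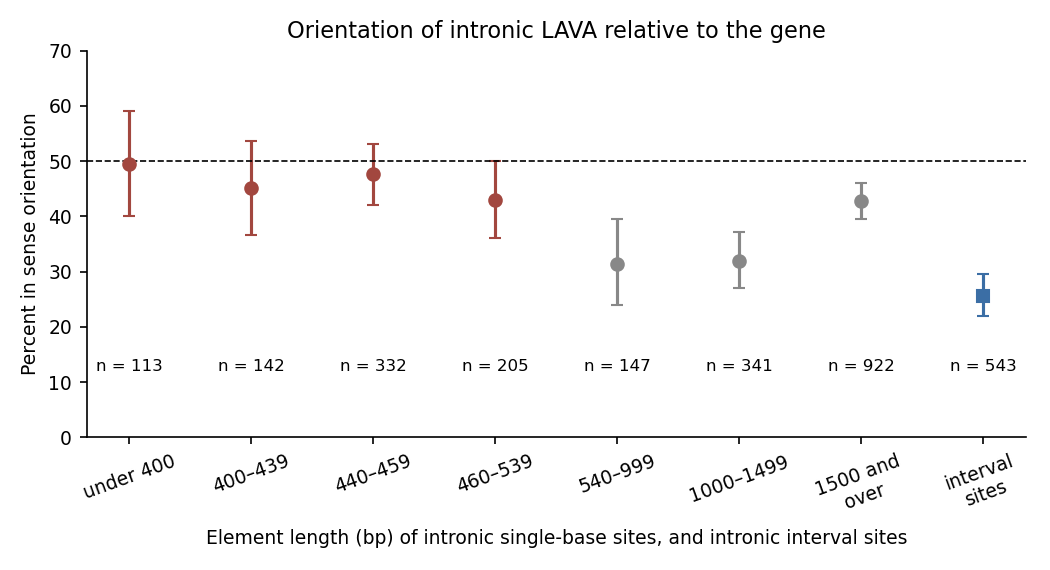
Percent of intronic sites in sense orientation (vertical axis) by element length for single-base sites (circles, short sites in red) and for interval sites (square). Error bars are exact 95% intervals over the n sites printed in each column and the dashed line marks 50%; the 4 bins of short sites lie between 42.9% and 49.6%, above the 2 bins from 540 to under 1500 bp.

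The 792 sites carried 749 gene names, of which 714 had 1 short site and 35 had 2 or more. In the RefSeq table, 629 sites had a matching name, all protein-coding. FHIT, a tumour suppressor gene that spans a common fragile site, and N4BP2, whose product binds the ubiquitin ligase NEDD4, had 4 each. The 4 FHIT sites, between 82712451 and 83140888 on chromosome 21, were each of 1 genus: 3 and 4 Hylobates animals carried the first pair, the 3 Hoolock animals the next and both Symphalangus animals the last. The last pair lay 3271 bp apart, and both were 452 bp long and antisense. The N4BP2 sites, between 47497879 and 47551155 on chromosome 20, were carried by 2 to 6 animals, and 3 of the 4 were in sense orientation.

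USP32, a deubiquitinase gene, AGBL1, which encodes a carboxypeptidase that trims glutamate from tubulin, the splicing factor gene RBFOX1, and the name 5S_rRNA had 3 each. The last may not mark a single gene, and 2 of its sites, with 8 and 9 carriers and none in Nomascus, were less frequent there by Fisher's exact test (adjusted p = 0.0024 and 0.00054). All 3 USP32 sites were in sense orientation, and the site at 12692789 on chromosome 14 was carried by all 5 Hylobates, 2 Hoolock, 2 Symphalangus and 2 Nomascus animals, less frequent in Nomascus by Fisher's exact test (adjusted p = 0.0107). The AGBL1 site at 105603763 on chromosome 6, with 7 carriers and none in Nomascus, was called in the same direction (Fisher's exact test, adjusted p = 0.0082). None of the 3 RBFOX1 sites was called. Names with 2 sites included WWP2, a ubiquitin ligase, PHKG2, a phosphorylase kinase subunit, SLC17A5, the lysosomal sialic acid transporter, the kainate receptor gene GRIK2, PXK, and MSRA, which repairs oxidised methionine. The PXK pair was carried by 3 Nomascus animals each and no other animal.

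Gene lists were set against the share over all genes: of 2263 names with an intronic site of any form, 749 (33.1%) had a short single-base one. Of 143 long neuronal and fragile-site genes, 61 had an intronic site and 24 a short one, with 33 short sites in all. These included the 4 in FHIT, 3 each in AGBL1 and RBFOX1, 2 each in GRIK2 and CSMD3, and 1 in CDH13, and 22 of the 33 (66.7%) were carried in 1 genus, against 47.7% of all short sites. Of the 33, 2 (6.06%) were called, 1 of them the AGBL1 site above, against 9.34% of all short sites. Of 161 ubiquitin ligase and protease genes, 40 had an intronic site and 16 a short one. Of its 20 short sites, 5 were less frequent in Nomascus, against 74 of the 792 (9.34%). The ANAPC1 site, described with the spindle genes, is 1 of the 5. The others included a site in FBXO42, a substrate adaptor of a ubiquitin ligase (chromosome 24, 17665300, adjusted p = 0.0279 by Fisher's exact test), and 1 in KLHL1 (chromosome 5, 97200936, adjusted p = 0.0082). RNF130, a ubiquitin ligase gene, had a site carried by 7 Nomascus and 1 Hylobates animals.

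Of 164 chromatin regulator genes, 40 had an intronic site and 15 a short one, with 16 short sites. None of the 16 was called, against 9.34% of all short sites. HDAC1, a histone deacetylase gene, had 2, carried in Hylobates and at the second also by 1 Hoolock animal. BAZ1A, a chromatin remodelling factor gene, had a site carried by 6 Nomascus and 1 Hylobates animals, and KDM2A, ARID4B and BRD9 had 1 site each. Of 129 chromosome segregation and spindle genes, 27 had an intronic site and 11 a short one, of which 3 (27.3%) were called, against 9.34% of all short sites. Called as less frequent in Nomascus were those in CLASP2, which binds microtubule ends (chromosome 4, 118880879, 463 bp, antisense, all 5 Hylobates and both Symphalangus animals, adjusted p = 0.0082), ANAPC1, a subunit of the anaphase-promoting complex (chromosome 14, 75849722, 4 Hylobates and 2 Hoolock animals, adjusted p = 0.0279), and CEP164, a centriole appendage protein (chromosome 15, 17839133, 4 Hylobates and 3 Hoolock animals, adjusted p = 0.0082), all by Fisher's exact test. The sites in KNTC1, a kinetochore protein gene, HAUS6, ANAPC5 and CLIP1 were not called.

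Of 164 cilium, centrosome and microtubule genes, 33 had an intronic site and 9 a short one. The CEP164 site counts here too and was the only one of the 9 called (11.1%, near the 9.34% of all short sites). Sites carried by the 3 Hoolock animals alone lay in KIZ and CFAP70. SPAST, the gene of the microtubule-severing enzyme spastin, had a site carried by 2 Hylobates animals, DNAH9 had 1 carried by 2 Hoolock animals, and DYNC1H1, the heavy chain of cytoplasmic dynein, had 1 carried by 7 animals of 3 genera. Of 116 DNA repair and checkpoint genes, 14 had an intronic site and 2 a short one. RAD17, a gene of the DNA damage checkpoint, had 2 short sites in sense orientation, a 453 bp one carried by 3 Hylobates animals and a 387 bp one carried by 15 animals of all 4 genera. ERCC3, a helicase gene of nucleotide excision repair, had 1, carried by 2 Nomascus animals.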

How the data were processed

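Per the labels' protocols, blood DNA was sheared and made into Illumina libraries, and BWA is named without a version in the submitters' processing notes. No insertion caller, filter or genome build is given in the sources used here. In the authors' deposited table, 1 marks a carried insertion, 0 an insertion not carried and NA a missing call, and all 23 columns were matched to an animal by title. Replicates were numbered in order of deposit and pair nothing. That replicates are unrelated animals is not stated, so p-values of the permutation tests measure the spread between these animals. P-values of the Fisher's and binomial tests do not measure that spread.

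Missing calls counted as not carried. Permutation tests enumerated all assignments, and a two-sided p is double the smaller tail. Fisher's tests of shares and binomial tests were over sites. The Fisher's test of carriers at each site was over the 23 animals. Within each family p-values were adjusted by Benjamini-Hochberg, with a threshold of 0.05. Intervals are exact Clopper-Pearson 95% intervals and cover counting error only. The site test was tried on simulated data with independent animals and large planted differences. That check does not cover the sharing of sites within a genus. Python 3.11.15, SciPy 1.17.1 and pandas 2.3.3 were used. Names were looked up in the RefSeq table of assembly Asia_NLE_v1, whose coordinates were not used.

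The sites, the 6 gene lists and the tests were chosen with earlier results of these data known. Named genes are those with 2 or more sites (up to 12), up to 6 sites per genus carried by all its animals and no other, up to 8 sites of all 4 genera by number of carriers, up to 8 called sites per direction, up to 6 genes per list and the sites nearest the length limits. Names in the RefSeq table come first within the genus, all-genera and called parts. No sequence of an insertion was used here.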

Additional observations from a re-analysis of the deposited data

How the results depend on the processing

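Across 22 results and 280 alternatives, 249 kept the direction and the side of the threshold, or a count within 1.5 times. Sequencing depth is unknown, so no call can be weighted by it, and the sources do not say how element lengths were measured. No paired analysis was possible because replicate numbers only follow the order of deposit. The causes of the changes below were not tested, except where fewer sites or animals remain by construction.

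A limit of 400 bp, which leaves 113 short intronic sites and moves the other 679 into the comparison set, turned the difference in sites per animal to -11.9 for Hylobates minus Hoolock and -9.2 for Hylobates minus Symphalangus, and the difference in the short share to -0.91 percentage points for Hylobates minus Symphalangus. Under it the following were no longer past the threshold: the short share in Nomascus minus Symphalangus (1.04 percentage points), N. gabriellae minus N. leucogenys (8 sites), the sense share minus 50 (-0.44) and minus that of sites of at least 400 bp (8.44), and the excess over those sites in all 4 genera (3.34) and in Nomascus (7.82). Against sites of at least 540 bp, an alternative chosen after seeing the data, the same 113 sites kept these 3 calls, with differences of 10.6 in sense, 6.01 in all 4 genera and 15.6 in Nomascus. With at least 3 carriers, the short share in Nomascus minus Symphalangus was 1.35 and in Hylobates minus Symphalangus -4.79, the sense share lay -3.3 from 50, and 9 short sites were more frequent in Nomascus. Also chosen after seeing the data were a comparison with sites of at least 1500 bp, where the sense difference was 3.48, and a two-sided p from absolute differences, which put the short share of Hylobates minus Hoolock, 19.4, past the threshold (exact permutation, adjusted p = 0.0268). Single-base sites under 540 bp were intronic at 50.5% and longer ones at 50.3% (Fisher's exact p = 0.875). This difference of 0.28 became -0.081 without sites with a missing call, -0.99 at 700 bp and -0.32 with at least 3 carriers.

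Leaving out 1 animal at a time, sites per animal differed by -119 to -113 for Nomascus minus Symphalangus, by -5 to 19.5 for Hoolock minus Symphalangus and by 43.8 to 46.8 for N. gabriellae minus N. leucogenys. The short share differed by 16.7 to 17.3 for Nomascus minus Symphalangus. Sites called as more frequent in Nomascus numbered 1 to 5 and as less frequent 59 to 96. With 1 animal left in Symphalangus or N. gabriellae, the exact test cannot reach the threshold.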

Other observations

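Short intronic sites were found on all 26 chromosomes of the table. Chromosomes 10 and 14 held 50 each and chromosome 25 held 7. As a share of the intronic single-base sites of a chromosome, short ones ranged from 24.8% on chromosome 1a (95% exact interval 16.7 to 34.3) to 45.8% on chromosome 20 (32.7 to 59.2), and the X chromosome held 20 short sites (40.0%, 26.4 to 54.8). The intervals of these chromosomes overlap.

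No short intronic site lay within 1000 bp of another listed LAVA site, and 57 lay within 10000 bp. The closest was the site named AP001596.1, 1282 bp from its neighbour. Pairs of short sites within a gene lay 2419 bp apart in FBXO42, 2472 bp in N4BP2, 2909 bp in SLC17A5 and 2966 bp in PHKG2. In FBXO42 the 464 bp site in sense orientation was carried by 2 Hylobates, 2 Hoolock and 2 Symphalangus animals, and the 390 bp site in antisense orientation by 1 Hylobates and 2 Symphalangus animals. In PHKG2 both sites were antisense, with 12 and 13 carriers, of which 6 and 8 were Nomascus animals.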
